A study of Mus musculus with 14 samples.

Results

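miR-103 and miR-107 are near-identical microRNAs (miRNAs) measured here in mouse plasma by quantitative PCR. They were chosen by name, as the wells named mmu-miR-103 or mmu-miR-107, with the species prefix and arm left aside. This gave 2 of 389 named miRNAs and 3 of 768 wells per mouse, since miR-103 has a well on each of the panels, panel I and panel II, and miR-107 has 1 well, on panel I. The values come from 8 genetically engineered (GEMM) mice with osteosarcoma (OS), a bone tumor, and from 6 healthy wild-type littermates, 1 plasma sample per mouse. The GEMM mice carry Cre recombinase under an osteoblast promoter of the collagen gene Col-α1(I) and 1 or both Trp53 alleles flanked by LoxP sites, so that Trp53 is deleted in osteoblasts only, and how many alleles each mouse carried is not given in the labels. By the study's genotyping, wild-type means p53+/+ and Cre+/-, and these mice were age matched. Blood was drawn by cardiac puncture once a tumor had developed. Ages of single mice are not given in the sources used here.

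Pantothenate kinases carry out the first step in the synthesis of coenzyme A, the cofactor of fatty acid and sugar oxidation, and the genes that encode them also hold the hairpins of miR-103 and miR-107 in their introns. Both miRNAs pair with messenger RNAs through their seed, the bases from position 2 to 8, and are known in mice for lowering insulin sensitivity through caveolin-1 and in cancer cells for repressing Dicer, the enzyme that releases mature miRNAs. In human cells miR-107 is known to respond to p53, the protein that Trp53 encodes. miR-103 is also 1 of 3 miRNAs that the study used, with the synthetic spike-in UniSp2, to scale plasma measurements in other mice. The study chose these 3 in its mouse screen by GeNorm and NormFinder, algorithms that estimate how much expression varies. Neither was run here. The behaviour of miR-103 between groups here bears on its use as a reference. The study's screen, from which the values here come, was scaled to the global mean. The study's methods list more mice with OS in the screen than the 8 with values here, and 6 wild-type mice as here.

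The mature sequences show how little separates the members. They are those of RefSeq for mouse build GRCm38.p6, in lower case with the seed in capitals.
miR-103: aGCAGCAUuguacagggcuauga
miR-107: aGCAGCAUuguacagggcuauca
Of 23 bases 22 are identical, and the only difference is G22C, in which miR-103 has the first base, miR-107 the last, and position 22 is counted from the 5′ end. Among 1679 mature mouse miRNAs in RefSeq these are the 2 that hold this seed. How far the primers of either assay also detect the other miRNA was not tested here.

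The mature miR-103 comes from a pair of genes and miR-107 from 1, and each lies within a pantothenate kinase gene on the same strand. In these hairpins the mature miRNA is in capitals, to show that its surroundings differ although the mature part of both miR-103 hairpins is the same.
Mir103-1: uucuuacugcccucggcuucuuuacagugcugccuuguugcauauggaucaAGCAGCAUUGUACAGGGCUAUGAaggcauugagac
Mir103-2: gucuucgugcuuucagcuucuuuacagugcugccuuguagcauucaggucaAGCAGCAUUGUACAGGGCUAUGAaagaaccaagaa
Mir107: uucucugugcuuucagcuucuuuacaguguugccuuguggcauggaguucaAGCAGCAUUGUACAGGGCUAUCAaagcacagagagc
In GRCm38.p6, Mir103-1 lies at chr11:35782396-35782481 on the plus strand, 12901 bases after the start of Pank3. Mir103-2 lies at chr2:131288052-131288137 on the plus strand, 26044 bases into Pank2. Mir107 lies at chr19:34820687-34820773 on the minus strand, 62650 bases into Pank1. A well of miR-103 therefore reads the sum of both miR-103 genes. The opposite arm of the Mir103-2 hairpin has a well of its own, under the name miR-103-2*. This arm differs from the opposite arms of Mir103-1 and Mir107 by 1 base each. Whether its well also detects those arms was not tested.
miR-103-2*: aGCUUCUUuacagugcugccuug

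A well is read as its quantification cycle (Cq), the cycle at which the signal passes a set level, on a log2 scale where a lower Cq stands for more of the miRNA. Both members were measured in every mouse, well under the background limit of Cq 37. In the panel I well miR-103 had Cq 26.97, 27.42, 28.85, 27.05, 27.13, 27.30, 27.88 and 29.25 in OS replicates 10, 11, 12, 15, 16, 17, 18 and 19, and 28.44, 26.11, 25.31, 26.18, 24.31 and 25.48 in control replicates 1, 2, 3, 4, 13 and 14. In the panel II well it had 26.72, 27.43, 28.53, 26.89, 27.08, 27.31, 27.71 and 29.03 in the same OS mice, and 28.18, 26.23, 25.23, 26.08, 24.24 and 25.49 in the same control mice. Of 6 control mice 5 had a lower Cq than every mouse with OS, in both wells, and control replicate 1 lay among the highest.

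miR-107 followed the same order of groups at a higher Cq. It had Cq 29.01, 29.73, 30.94, 28.72, 29.54, 28.94, 29.88 and 31.18 in OS replicates 10, 11, 12, 15, 16, 17, 18 and 19, and 30.57, 28.11, 27.61, 28.63, 26.15 and 27.25 in control replicates 1, 2, 3, 4, 13 and 14. Again 5 of 6 control mice lay under every mouse with OS, and OS replicates 12 and 19 had the highest Cq with control replicate 1.

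**Figure D1:**
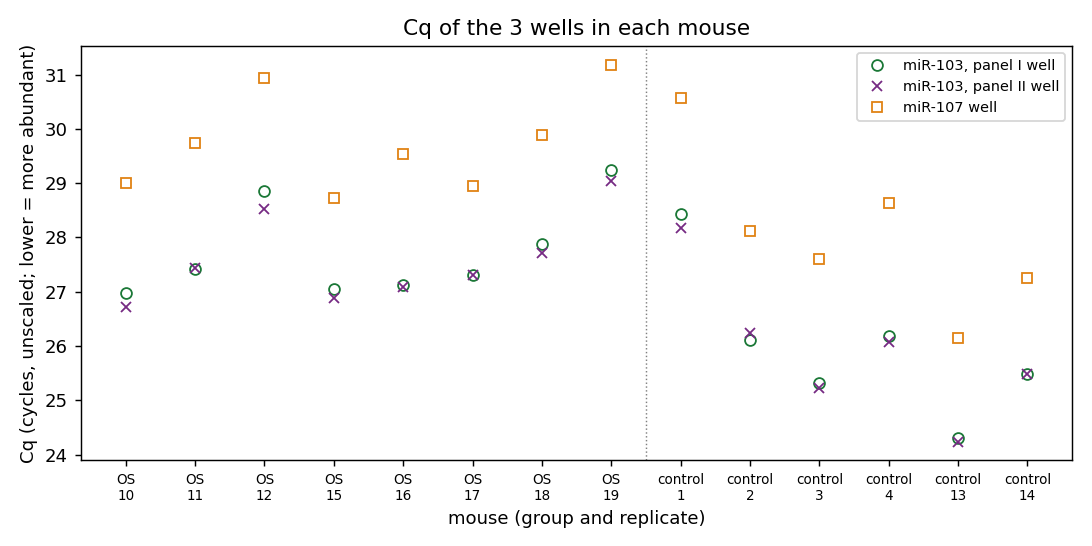
Unscaled Cq in cycles (vertical axis, lower for a more abundant miRNA) of the miR-103 wells of panel I and panel II and of the miR-107 well, in each of 8 OS and 6 control mice (horizontal axis, group and replicate number). The wells move in parallel from mouse to mouse, with the miR-107 well 1.635 to 2.50 cycles above the mean of the miR-103 wells.

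The repeat wells give the precision of a reading. The panel II well of miR-103 differed from the panel I well by -0.109 ± 0.126 cycles (SD, n = 14 mice), from -0.32 to 0.12, so that 2 readings of miR-103 in 1 mouse lay within 0.32 cycles while the mean Cq ranged over 2.30 cycles among mice with OS and 4.04 among controls. The gap between wells did not differ between groups beyond its spread (OS minus control -0.08 cycles, 95% interval -0.225 to 0.065 from the exact permutation test, two-sided p = 0.254). In what follows the wells were averaged.

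Each mouse was then centred on its global mean Cq over the 388 miRNAs retained, and a normalized level is the global mean minus the Cq, in log2 units and higher for a more abundant miRNA. The normalized level of miR-103 was 4.87, 4.34, 3.76, 5.20, 4.55, 4.52, 4.69 and 3.72 in OS replicates 10, 11, 12, 15, 16, 17, 18 and 19, and 4.53, 5.34, 6.51, 5.98, 6.31 and 5.76 in control replicates 1, 2, 3, 4, 13 and 14. All control mice but replicate 1 lay above every mouse with OS. OS replicates 11, 12, 17 and 19 lay below every control, and the remaining 4 lay within the range of the controls.
miR-103 was 2.44-fold lower in OS, at 4.46 ± 0.51 (SD, n = 8) in mice with OS and 5.74 ± 0.72 (SD, n = 6) in controls, a log2 difference of -1.28 with a standard error of 0.36 and a 95% confidence interval of -2.05 to -0.52 (limma adjusted p = 0.0295 over 388 miRNAs). By exact permutation the two-sided p was 0.00366.

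The normalized level of miR-107 was 2.71, 2.04, 1.51, 3.45, 2.11, 2.88, 2.61 and 1.68 in OS replicates 10, 11, 12, 15, 16, 17, 18 and 19, and 2.27, 3.40, 4.17, 3.48, 4.44 and 4.00 in control replicates 1, 2, 3, 4, 13 and 14. Controls 3, 4, 13 and 14 lay above every mouse with OS, and OS replicates 11, 12, 16 and 19 lay below every control. OS replicate 15, the highest of its group, was level with control replicates 2 and 4.
miR-107 was 2.39-fold lower in OS, at 2.37 ± 0.65 (SD, n = 8) in mice with OS and 3.63 ± 0.77 (SD, n = 6) in controls, a log2 difference of -1.25 with a standard error of 0.40 and a 95% confidence interval of -2.09 to -0.42 (limma adjusted p = 0.0443). The exact permutation p was 0.00899, two-sided.

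**Figure D2:**
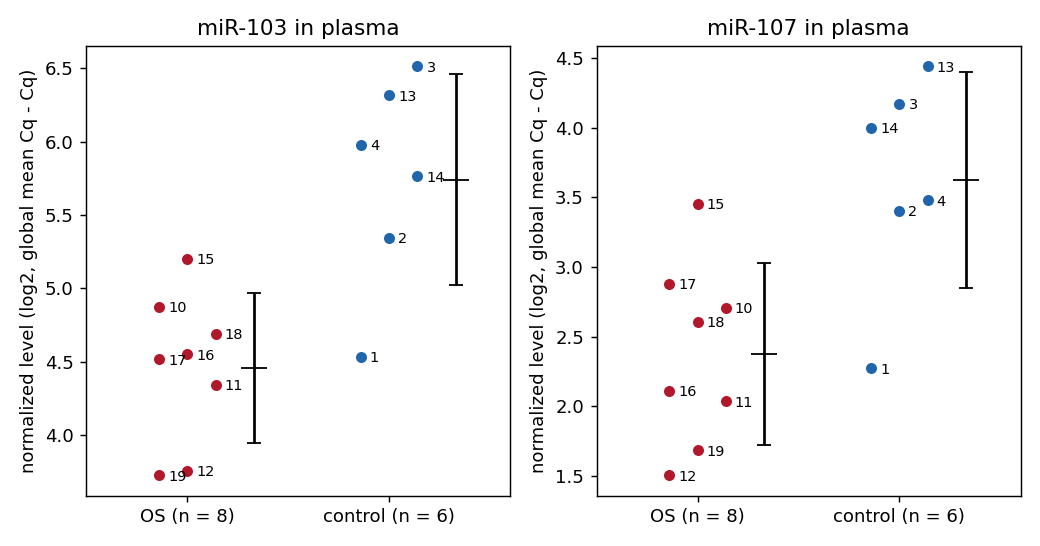
Normalized plasma level (log2, global mean Cq minus Cq) of miR-103 and miR-107 in each mouse, with OS on the left and control on the right of each plot. Points are mice with their replicate numbers, and the black marks give the mean and SD of 8 OS and 6 control mice. miR-103 averaged 4.46 in OS and 5.74 in controls, miR-107 2.37 and 3.63, and control replicate 1 lies among the mice with OS for both.

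Both members thus passed the test in the same direction, and limma called 6.44% of all miRNAs tested lower in OS, 6.19% higher and 12.6% in either direction. By size of the difference, miR-103 was the 31st and miR-107 the 32nd lowest of 388. The groups overlapped for both, and they did not overlap for 2.84% of the miRNAs. As for both members, 4 or more mice with OS lay below every control for 22.1% of the 276 miRNAs with a value in all 14 mice.
The calls lay near the threshold. Leaving out 1 mouse, miR-103 lost its call in 7 of 14 fits (without OS replicate 11, 12 or 19 or control replicate 3, 4, 13 or 14, adjusted p 0.0511 to 0.0764) and miR-107 in 11 of 14, every one but those without OS replicate 15 or 17 or control replicate 1 (adjusted p 0.0501 to 0.115). The differences stayed between -1.52 and -1.13 for miR-103 and between -1.52 and -1.10 for miR-107.

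The haemolysis marker subtracts the Cq of miR-451, a red blood cell miRNA, from that of miR-23a, and is known to rise when red blood cells break on sampling. Its mean was lower in OS, as were those of both members, but its own difference did not pass. It was 1.05, 2.97, 2.59, 6.36, 5.03, 4.26, 6.85 and 4.42 in OS replicates 10, 11, 12, 15, 16, 17, 18 and 19, and 4.38, 4.99, 7.03, 4.11, 7.21 and 6.88 in control replicates 1, 2, 3, 4, 13 and 14 (OS minus control -1.58 cycles, exact permutation p = 0.117). Controls 3, 13 and 14 had both the highest markers and high levels of both miRNAs, while OS replicate 10 had the lowest marker with the second highest level of miR-103 in its group.
As deviations from the group means over 14 mice, miR-103 and the marker had Pearson r = 0.43 (permutation p = 0.118, adjusted p = 0.237) and Spearman rho = 0.42 (permutation p = 0.148, adjusted p = 0.288). miR-107 and the marker had r = 0.54 (permutation p = 0.0544, adjusted p = 0.131) and rho = 0.57 (permutation p = 0.0418, adjusted p = 0.125). None passed after adjustment over the 12 relations computed. Without OS replicates 10 and 18, the farthest on the marker, r was 0.69 for miR-103 and 0.79 for miR-107.
Within the 8 mice with OS, r with the marker was 0.30 for miR-103 (exact permutation p = 0.463, adjusted p = 0.463) and 0.38 for miR-107 (exact permutation p = 0.354, adjusted p = 0.425), and rho was 0.31 for both. Within the 6 controls it was 0.66 for miR-103 (exact permutation p = 0.156, adjusted p = 0.241) and 0.83 for miR-107 (exact permutation p = 0.0319, adjusted p = 0.0958), with rho 0.60 and 0.83. Without the 2 mice farthest on the marker, OS replicates 10 and 18, r was 0.75 for both members in OS. Without control replicates 1 and 4 it was 0.85 and 0.96 in controls. These values rest on fewer mice than the 8 and 6 above and were not tested.

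With the marker as a covariate, neither member was called. The difference was -1.05 for miR-103 (standard error 0.37, limma adjusted p = 0.162) and -0.91 for miR-107 (standard error 0.39, limma adjusted p = 0.267). It was -0.95 (limma adjusted p = 0.189) and -0.91 (limma adjusted p = 0.245) without control replicates 3 and 13, whose marker was over 7. Of 7 red blood cell miRNAs measured, 1 was lower in OS (miR-144, a red blood cell miRNA, log2 difference -2.38, limma adjusted p = 0.0131), none was higher, and their median difference was -0.77, where 6.44% of all miRNAs tested were called lower and the median of all was -0.0027. Their summed level, over the 6 measured in every mouse, ranged from 9.67 to 12.98 in OS and from 11.98 to 14.02 in controls on the log2 scale. Of 10 white blood cell assays 2 were lower, again beside 6.44% of all miRNAs, miR-142-3p (log2 difference -3.57, limma adjusted p = 0.00326) and miR-146b (log2 difference -1.29, limma adjusted p = 0.0407). The rat assay rno-miR-146b, on the same list, was not called. The summed level of the 10 assays ranged from 7.70 to 8.35 in OS and from 8.32 to 9.58 in controls. None of 9 platelet assays passed limma's adjusted test or the methods' t-test after adjustment, and 3 had an unadjusted limma p under 0.05, as had 30.7% of all miRNAs tested. The summed level of the platelet assays ranged from 8.94 to 9.24 in OS and from 9.05 to 9.82 in controls, with medians of 9.15 and 9.36. Each of these sums was lower in OS, by p-values that were not adjusted. The log2 difference was -1.27 for red blood cells (exact permutation p = 0.0463). It was -0.85 for white blood cells (exact permutation p = 0.0007) and -0.31 for platelets (exact permutation p = 0.0127). These sums are not separate results, as miR-150, miR-223 and rno-miR-223 are on both the white blood cell and the platelet list. Levels were summed before the log2 was taken, so the most abundant assays weigh most. The red blood cell list holds miR-451, which is also part of the marker. In plasma, less release from a cell type and fewer cells of it cannot be told apart, and the part of blood cells in the difference of miR-103 and miR-107 was not tested beyond these values.

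Under each scaling tried the differences were negative. Relative to the median of all miRNAs tested, which was -0.0027 under the global mean, miR-103 differed by -1.28 and miR-107 by -1.25. Unscaled, the median of all miRNAs was -0.45, with miR-103 at -1.72 (limma adjusted p = 0.0693) and miR-107 at -1.69 (limma adjusted p = 0.0840), with the sign of the Cq turned. Centred on the median Cq of those present in all 14 mice, which shifted the median of all miRNAs to 0.14, miR-103 was at -1.14 (limma adjusted p = 0.0356) and miR-107 at -1.11 and not called (limma adjusted p = 0.0625). With each panel on its own mean miR-103 was at -1.38 (limma adjusted p = 0.0255) and miR-107 at -1.01 (limma adjusted p = 0.0881). By the methods' t-test miR-103 passed with an adjusted p of 0.0417 and miR-107 did not, with an adjusted p of 0.0722.

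**Figure D3:**
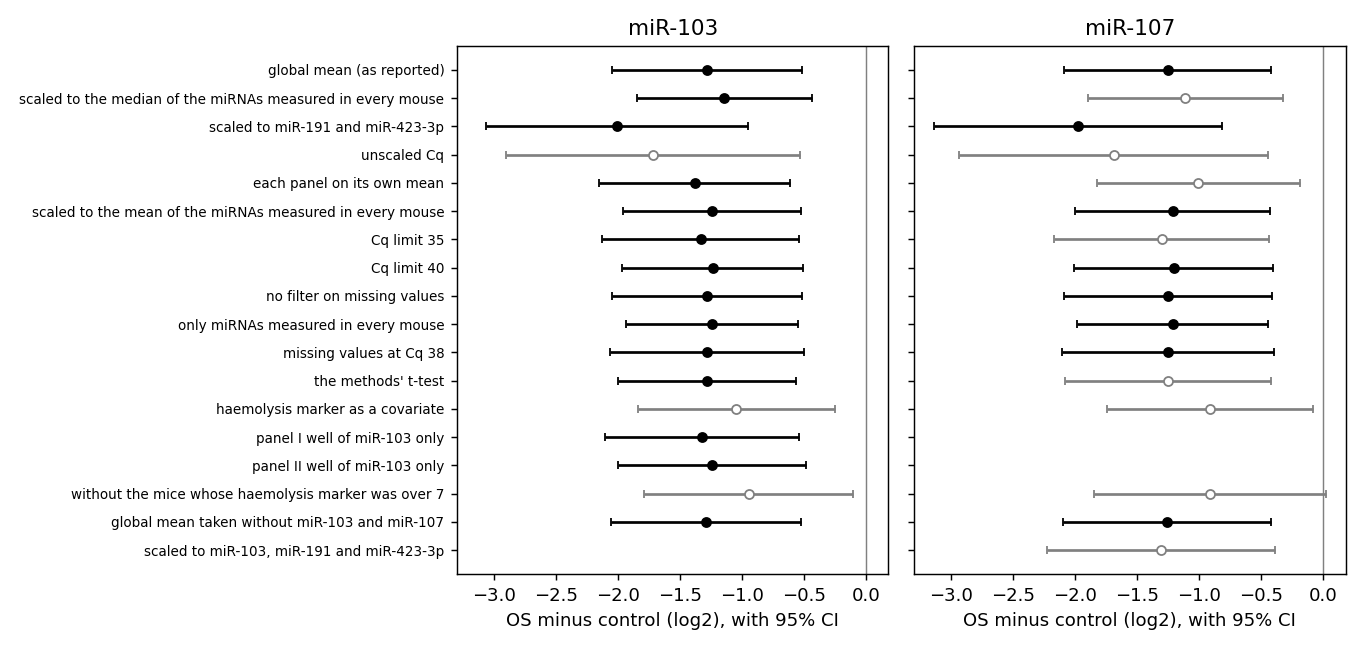
Log2 difference in plasma level, OS minus control, of miR-103 (left) and miR-107 (right) under each way of processing the Cq values, listed on the vertical axis. Points are estimates and bars 95% confidence intervals, filled black where the adjusted p was under 0.05 and open grey where it was not. The points of both miRNAs lie below 0 throughout, from -2.01 to -0.91.

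The closest partner of each member was the other. The Cq of miR-107 minus that of miR-103 was 2.17, 2.31, 2.25, 1.75, 2.44, 1.64, 2.09 and 2.04 cycles in OS replicates 10, 11, 12, 15, 16, 17, 18 and 19, and 2.26, 1.94, 2.34, 2.50, 1.88 and 1.77 in control replicates 1, 2, 3, 4, 13 and 14. OS replicates 15 and 17 lay just under every control and the other 6 lay within the range of the controls. The gap averaged 2.08 ± 0.27 cycles (SD, n = 8) in OS and 2.11 ± 0.29 (SD, n = 6) in controls, a difference of -0.03 cycles (95% interval -0.365 to 0.305, exact permutation p = 0.844, two-sided). Any scaling by 1 value per mouse leaves the gap as it is, but a scaling by panel does not, since miR-103 was averaged over both panels and miR-107 was on panel I only. With each panel on its own mean the gap differed by -0.37 cycles between groups (exact permutation p = 0.0276, two-sided), outside the interval above. With the panel I well of miR-103 only, both members are on 1 panel and no scaling of either kind moves the gap, which then differed by -0.07 cycles (exact permutation p = 0.634). The gap is a difference between assays and not a ratio of molecules, as the efficiencies of the primers are not given in the sources used here.

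Over the 14 mice the gap had an SD of 0.271 cycles, the smallest that miR-103 had with any of the other 275 miRNAs measured in every mouse, and likewise for miR-107. The median SD against the others was 1.15 cycles for miR-103 and 1.19 for miR-107. Next to miR-107, miR-103 lay closest to the rat assay rno-miR-352 (0.379 cycles) and to let-7i (0.486), and next to miR-103, miR-107 lay closest to let-7i (0.392) and miR-15b* (0.419). For scale, the SD of the difference between repeat wells was 0.215 cycles for miR-191, 0.217 for miR-423-3p and 0.126 for miR-103.

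Normalized levels of both members rose and fell together within each group. As deviations from the group means over 14 mice, Pearson r was 0.92 (permutation p = 3.0e-05, adjusted p = 0.00036) and Spearman rho 0.85 (permutation p = 0.00040, adjusted p = 0.0048), and without control replicate 1 and OS replicate 19, the farthest from the median, r was 0.85. Among the 8 mice with OS r was 0.92 (exact permutation p = 0.00134, adjusted p = 0.00804) and rho 0.83 (exact permutation p = 0.0154, adjusted p = 0.0923), with r = 0.84 without OS replicates 12 and 19. Among the 6 controls r was 0.93 (exact permutation p = 0.0139, adjusted p = 0.0556) and rho 0.89 (exact permutation p = 0.0333, adjusted p = 0.125), with r = 0.74 without control replicates 1 and 3. The order of mice was nearly the same for both, with OS replicates 12 and 19 at the low end, control replicates 3 and 13 at the high end, and OS replicate 15 beside control replicate 2. All values of a mouse share its plasma, its extraction and the mean used for scaling.

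**Figure D4:**
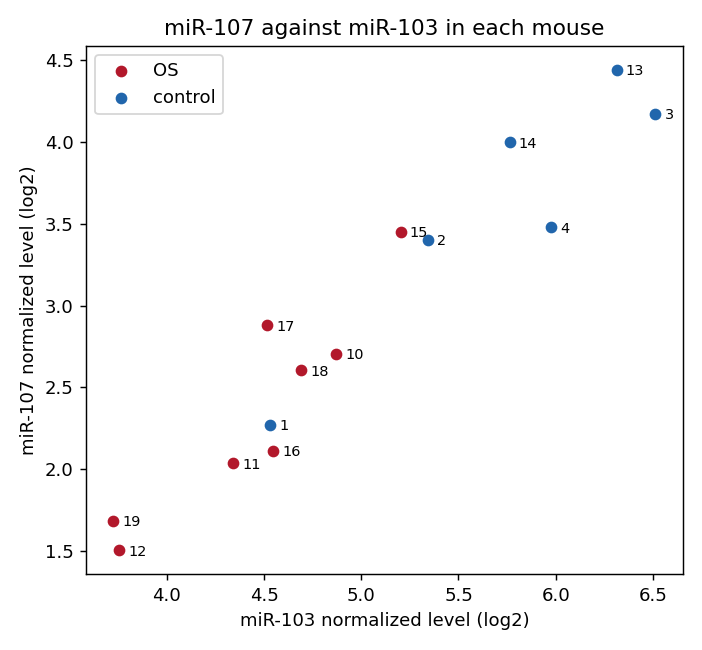
Normalized level of miR-107 (vertical axis, log2) against that of miR-103 (horizontal axis, log2) in each of 8 OS and 6 control mice, labelled by replicate number. Mice high in miR-103 are high in miR-107 in both groups (r = 0.92 in OS, 0.93 in controls), and control replicate 1 lies among the mice with OS.

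By the same measure, the r of deviations from the group means, the 5 miRNAs most like miR-103 were miR-107 (0.92), rno-miR-352 (0.91), miR-374 (0.90), miR-26b (0.88) and let-7d (0.87), where the median over 275 miRNAs was 0.09. Those most like miR-107 were miR-103 (0.92), miR-26b (0.89), miR-301a (0.86), miR-1961 (0.86) and let-7i (0.85), with a median of 0.11. miR-26b, which lies in an intron of a phosphatase gene, was the only miRNA beside the members on both lists. Of these, miR-374 (log2 difference -2.06, limma adjusted p = 0.0130), let-7d (-1.94, limma adjusted p = 0.0295) and rno-miR-352 (-1.41, limma adjusted p = 0.0443) were lower in OS, and miR-26b was not called (-1.33, limma adjusted p = 0.101), nor were let-7i (-1.17), miR-301a (-0.95) and miR-1961 (-0.70, limma adjusted p 0.0748 to 0.274 for these 3). Over all miRNAs tested 6.44% were called lower in OS. The miRNAs on both lists were picked from these same data, by likeness to members that were themselves lower, so their calls are no separate evidence.

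miR-103-2*, the opposite arm of the hairpin in Pank2, was close to the background limit, at Cq 34.07 to 36.55 in 7 mice with OS and 33.14 to 36.50 in 6 controls, and OS replicate 19 was over Cq 37 and counted as missing. Its normalized level was -4.04, -3.37, -4.00, -4.21, -3.37, -2.25 and -4.06 in OS replicates 10, 11, 12, 15, 16, 17 and 18, and -3.66, -3.09, -2.54, -3.21, -2.55 and -2.75 in control replicates 1, 2, 3, 4, 13 and 14. OS replicates 10, 12, 15 and 18 lay below every control and OS replicate 17 above every control. The log2 difference of -0.65 did not pass limma's test (SE 0.37, adjusted p = 0.242), and by exact permutation p was 0.0734. As OS replicate 19 was over the limit, a low level is left out of the OS mean. The Cq of miR-103-2* lay 7.92 cycles above that of miR-103 at the median in OS and 8.69 in controls. This gap had an SD of 0.737 cycles over 13 mice, against 0.271 for the gap between miR-107 and miR-103. The mean of this gap was 8.18 cycles in OS and 8.71 in controls, a difference of -0.53 cycles (exact permutation p = 0.208).

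The study's reference miRNAs were miR-191, miR-423-3p and miR-103, and the mean differences of the first 2 had the opposite sign to that of miR-103. miR-191, a miRNA of many blood cells, was 4.54, 4.36, 4.25, 3.47, 3.65, 2.19, 3.23 and 3.64 in OS replicates 10, 11, 12, 15, 16, 17, 18 and 19, and 2.00, 3.06, 3.54, 3.81, 3.63 and 3.40 in control replicates 1, 2, 3, 4, 13 and 14. Its difference was 0.42 (95% confidence interval -0.42 to 1.27, limma adjusted p = 0.498). miR-423-3p averaged 3.48 ± 0.91 (SD, n = 8) in OS and 2.45 ± 0.43 (SD, n = 6) in controls, a difference of 1.03 (95% confidence interval 0.16 to 1.89) that did not pass either (limma adjusted p = 0.108). miR-103 was thus the only reference miRNA called under the global mean.
As a mean, the 3 references offset each other. The mean of their normalized levels differed by 0.05 between groups (3.19 to 4.67 in OS, 3.02 to 4.11 in controls, exact permutation p = 0.824), and without miR-103 the mean of the other two differed by 0.72 (2.53 to 4.57 in OS, 2.26 to 3.16 in controls, exact permutation p = 0.0603). The Cq of miR-103 minus the mean Cq of miR-191 and miR-423-3p ranged from -2.37 to 0.58 cycles in OS and from -3.60 to -2.18 in controls, with 7 of 8 mice with OS above every control (difference 2.01 cycles, exact permutation p = 0.0030).
Scaled to miR-191 and miR-423-3p, under which the median of all miRNAs was -0.71, miR-103 was at -2.01 (limma adjusted p = 0.0241) and miR-107 at -1.98 (limma adjusted p = 0.0336). Scaled to all 3 references, miR-107 was at -1.31 and not called (limma adjusted p = 0.0661). The spike-in UniSp2, also part of the study's scaling factor, was not included here, so the study's own scaling was not tested.
Across mice, the deviations of miR-103 had r = 0.33 with those of miR-191 and -0.41 with those of miR-423-3p, and the SD of the Cq difference was 1.15 and 1.62 cycles. By r, miR-191 ranked 85th and miR-423-3p 242nd of 275 in likeness to miR-103, and by the SD they ranked 137th and 224th.

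The 5′ ends of miR-103 and miR-107 share the 6 bases AGCAGC with the miR-15 and miR-16 group, miRNAs known for repressing cyclins and BCL2. These bases begin at position 1 in the members and at position 2 in the group, as the mature sequences with the seed in capitals show.
miR-15a: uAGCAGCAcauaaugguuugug
miR-15b: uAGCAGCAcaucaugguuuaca
miR-16: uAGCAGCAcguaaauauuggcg
miR-195: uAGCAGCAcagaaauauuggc
miR-322: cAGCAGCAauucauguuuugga
miR-497: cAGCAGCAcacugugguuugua
miR-503: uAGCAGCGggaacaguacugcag
AGCAGC, searched on the mature strand, is within the first 8 bases of 0.774% of mature mouse miRNAs, 13 of 1679. miR-503 differs from the others of the group in the last base of its seed.

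Of these 7 other miRNAs with AGCAGC near the 5′ end, 1 was lower in OS, none was higher and 6 did not pass, with a median difference of -0.75 against -0.0027 over all miRNAs tested, and 6 of 7 had a negative sign. Over all miRNAs 6.44% were called lower and 50.3% had a negative sign. miR-15a was lower, at 5.06 ± 0.97 (SD, n = 8) in OS and 6.72 ± 0.79 (SD, n = 6) in controls, which is -1.66 on the log2 scale (SE 0.47, limma adjusted p = 0.0295). miR-15b was at -1.02 (limma adjusted p = 0.106), miR-16 at -0.77 (limma adjusted p = 0.193), miR-497 at -0.75, miR-503 at -0.65 and miR-322 at -0.56. miR-195, which shares a locus with miR-497, had the opposite sign at 0.91 (limma adjusted p = 0.242), with values in 7 mice with OS. Its normalized level averaged -2.92 in OS and -3.83 in controls, near that of miR-103-2*, and so was close to the background limit.
Within groups miR-16 followed the members as well, with r = 0.73 to miR-103 and 0.83 to miR-107, and miR-15a with 0.65 and 0.75, while miR-322 did not, with -0.07 and -0.05. miR-15b and miR-16 are also on the list of red blood cell miRNAs, and miR-15a is made from a cluster with miR-16.

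**Figure D5:**
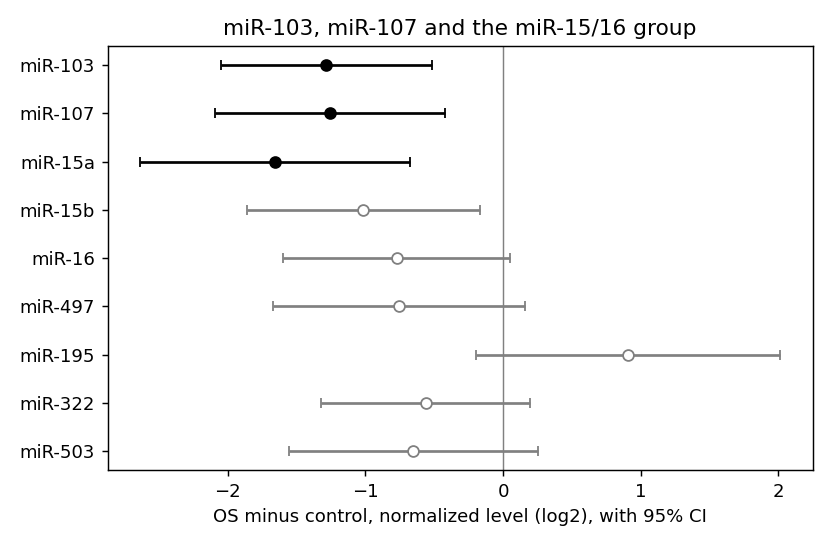
Log2 difference in normalized plasma level, OS minus control, of miR-103, miR-107 and 7 miRNAs of the miR-15 and miR-16 group that share AGCAGC (limma, 8 OS and 6 control mice, 7 OS mice for miR-195). Points are estimates and bars 95% confidence intervals, filled black where the adjusted p was under 0.05. They run from -1.66 for miR-15a to 0.91 for miR-195, with miR-103 at -1.28 and miR-107 at -1.25.

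Other lists that hold the members gave few further calls. Among 21 assays of p53-responsive miRNAs beside miR-107, 3 were lower in OS, miR-141 (log2 difference -2.23, limma adjusted p = 0.0261), miR-15a and miR-16-1* (-1.68, limma adjusted p = 0.0432), none was higher, and 18 did not pass. Their median was -0.77, and 20 of 21 were negative, where over all miRNAs 6.44% were called lower, the median was -0.0027 and 50.3% were negative. By the methods' t-test none of the 21 passed after adjustment, and 6 had an unadjusted limma p under 0.05, beside 30.7% of all miRNAs. Among 16 assays of miRNAs known in lipid and insulin metabolism, the field in which miR-103 and miR-107 are best known, none beside the members passed limma's adjusted test or the methods' t-test after adjustment, and 1 had an unadjusted limma p under 0.05, with a median of -0.51. Among 35 assays of other miRNAs that lie in introns of protein-coding genes, 1 was lower, miR-106b of the Mcm7 intron (log2 difference -1.42, limma adjusted p = 0.0443), none was higher, and the median was -0.35. Of these 35, 18 had an unadjusted limma p under 0.05, in both directions, and none passed the methods' t-test after adjustment.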

How the data were processed

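The authors deposited Cq values, on a log2 scale and not normalized between mice, for 768 wells per mouse on Exiqon mouse panels I and II (Roche LC480), 13.9% to 24.7% of them blank. Whether interplate calibration and outlier removal had been applied is not stated in these sources. A table of the authors' own fold changes and p-values served only to name wells by position (392 wells, 389 miRNAs).
Values over Cq 37 counted as missing, a miRNA with 75% or more missing was dropped (388 kept), repeat wells were averaged, and each mouse was centred on its mean Cq, in which alone missing values took the group mean or Cq 38.
Groups were compared by limma 3.58.1 in R 4.3.3 (lmFit, eBayes, two-sided, no covariate, Benjamini-Hochberg over 388 miRNAs, threshold 0.05). Single values were compared by exact permutation over 3003 splits (smallest p 0.00033), or 1716 (0.00058) for miR-103-2* with 7 OS mice, inverted for intervals. Correlations were tested by exact or 100000 random pairings, within groups for deviations, and adjusted over 12 relations. The code was tested on simulated data. Python 3.11.15, pandas 2.3.3 and matplotlib 3.10.9 were also used. A Cq has no count behind it, so precision rests on mice and repeat wells.
Named miRNAs are both members, references, haemolysis miRNAs, the AGCAGC group, up to 4 called per other list, and the 5 most like each member. miR-103-2*, miR-15b* and let-7i by SD were named after their values were seen. Members and lists were chosen with earlier results of these data known. Alternatives were other scalings, limits, filters, tests, wells and mice. Leaving out mice with a marker over 7, scaling to all 3 references, a global mean without the members and the gap between members with each panel on its own mean were added after the data were seen. Sequences and coordinates are from RefSeq, GRCm38.p6, in which 10 assays were matched.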

Additional observations from a re-analysis of the deposited data

Results flagged for a closer look

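The normalized level of miR-103-2* in OS replicate 17, at -2.25, stood apart from the other 6 measured mice with OS, by a gap of 0.571 of the range of the group (Dixon's criterion). The mean normalized level of the 3 references (miR-191, miR-423-3p, miR-103) in control replicate 1, at 3.02, stood apart from the other 5 controls, by 0.656 of the range. Chance flags about 1 in 20 groups, and these are 2 of 46 combinations of a quantity and a group looked at.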

How the results depend on the processing

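miR-103 and miR-107 kept a negative difference under every alternative run. Outside the fits that left out 1 mouse, miR-103 kept its call in 13 of 16 and miR-107 in 7 of 15. The calls were lost with unscaled Cq (-1.72 and -1.69), after adding the haemolysis marker to the fit as covariate (-1.05 and -0.91) and without control replicates 3 and 13, whose marker was over 7 (-0.95 and -0.91). miR-107 lost its call also when scaled to the median (-1.11) or to the 3 references (-1.31), with each panel on its own mean (-1.01), with a Cq limit of 35 (-1.30) and by the methods' t-test (-1.25). Leaving out 1 mouse, the difference ranged from -1.52 to -1.13 for miR-103 and from -1.52 to -1.10 for miR-107. The cause was not tested.
The number of miRNAs called was 49, and 21 unscaled, 29 with a Cq limit of 35, 24 by the methods' t-test, 17 with the marker in the fit, 20 without control replicates 3 and 13, and 20 to 73 leaving out 1 mouse (28 without OS replicate 11, 29 without OS replicate 12, 20, 31 and 22 without control replicates 3, 13 and 14). Calls higher in OS were 49.0% of all, and 66.7% when scaled to the median or to the 3 references, 17.8% when scaled to miR-191 and miR-423-3p, 19.0% unscaled and 64.7% with the covariate.
The group difference in the Cq gap between miR-107 and miR-103 changed sign with the panel II well of miR-103 only (0.01 cycles) and in 4 of 14 fits without 1 mouse (without OS replicate 15 or 17 or control replicate 3 or 4), which ranged from -0.0999 to 0.0471. It passed in none of these, nor with the marker in the fit or without control replicates 3 and 13 (permutation p from 0.399 to 0.997, exact except with the marker in the fit, where residuals were permuted). It passed with each panel on its own mean (-0.37 cycles, exact permutation p = 0.0276), which moves miR-103, averaged over both panels, apart from miR-107, on panel I only. Their co-variation kept its side of the threshold in all 7 other settings and all 14 fits without 1 mouse, with r from 0.87 to 0.97. No paired analysis was possible because the labels give neither pairs nor litters, and the replicate numbers are only the sample numbers of the titles. Both members lay far below the Cq limit, so the limit bears on them only through other miRNAs. These enter the mean used for scaling, the spread that limma shares and the adjustment, over 336 miRNAs with a Cq limit of 35.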

Other observations

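By mean Cq, from the most abundant, over 276 miRNAs measured in every mouse, miR-103 ranked 50th in mice with OS and 32nd in controls, and miR-107 94th and 63rd. For miR-191 the ranks were 63rd and 71st, and for miR-423-3p 65th and 90th. Assays differ in efficiency, so these ranks order the assays and not the molecules.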
